A study of Mus musculus with 8 samples.

Results

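Eomes, Neurog1, Neurog2, Neurod1, Neurod2, Neurod4, Neurod6, Insm1, Btg2 and Bhlhe22, the proneural and intermediate progenitor factors of the embryonic cortex, were examined in the mouse cortex after loss of BAF155 and BAF170. The genes were taken by symbol, and all 10 were found among the 30608 genes with at least 1 count in some sample. The samples were 4 cortices of dcKO_hGFAP-Cre mice, here dcKO, and 4 of control mice, sequenced at postnatal day 3 (P3), all on a C57BL/6J background. The dcKO mice carried floxed alleles in both copies of BAF155 and BAF170 (BAF155 fl/fl; BAF170 fl/fl; hGFAP-Cre pos/+). According to the methods of the study, the controls carried a single floxed copy of each gene together with the same Cre (BAF155 fl/+; BAF170 fl/+; Cre pos/+), whereas the labels name them wild type. In this line a human GFAP promoter drives the Cre recombinase, which is active in the radial glia of the dorsal telencephalon (dTel) before birth, so that cells of other origin in the dissected tissue keep both genes. The dcKO mice die soon after birth. The labels do not say whether each sample is a separate animal, and p-values measure the spread between these samples.

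In the developing cortex, radial glia express Pax6 and give rise to intermediate progenitors, which divide further and yield glutamatergic neurons. Neurog1 and Neurog2 are basic helix-loop-helix (bHLH) transcription factors that start this step, Eomes (Tbr2) is the T-box factor that marks intermediate progenitors, and Neurod1 and Neurod4 act next in the same cascade. Insm1 is a zinc finger factor that promotes the formation of these progenitors, and Btg2 (Tis21) is an antiproliferative gene of progenitors that divide to make neurons. Neurod2, Neurod6 and Bhlhe22 are bHLH factors of the postmitotic glutamatergic neuron, so the genes fall into 7 of the progenitor stage and 3 of the neuron stage. bHLH factors bind DNA as dimers with E proteins at the E-box, whose letters are CANNTG.

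The groups were read against their labels and known markers first. Smarcc1, which encodes BAF155, was 159 ± 11.2 CPM (the normalized count on a common scale of library size; SD, n = 4) in control and 81.2 ± 5.9 CPM in dcKO. Smarcc2, which encodes BAF170, was 483 ± 14.7 CPM in control and 283 ± 28.2 CPM in dcKO, and for both genes every dcKO sample was below every control. Total counts per sample ran from 21126713 to 32110285, so that 3 counts correspond to between 0.0934 and 0.142 CPM. The cerebellar marker Gabra6 had no count in any sample, and the other 3 genes of its list were low. The 2 libraries of dcKO replicates 1 and 2 stood apart from the others by choroid plexus RNA: the 4 markers of that tissue summed to between 1.29 and 10.8 CPM in control and between 3.05 and 1164 CPM in dcKO. Ttr, singled out here after its values were seen, had 13660 and 26614 counts in these 2 libraries, against 464 and 57 in dcKO replicates 3 and 4.

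Genes of the progenitor stage that changed were higher in dcKO cortex, and all 3 of the neuron stage were lower. Each gene was tested with edgeR's quasi-likelihood F test, adjusted by the Benjamini-Hochberg method over all 16525 genes that passed a filter on low counts. Of the 10 genes, 8 passed that filter, 4 rose (Neurog2, Eomes, Neurod1 and Btg2), 3 fell (Neurod2, Neurod6 and Bhlhe22) and Insm1 did not pass the threshold of 0.05. The transcriptome changed widely between these groups, since 37.5% of all tested genes passed the same threshold, 18.6% in the higher and 18.9% in the lower direction. For 6 of the 8 genes the samples of the groups did not overlap, 3 with all dcKO samples above and 3 with all below. Over all tested genes this held for 34.4%, with 16.7% above and 17.7% below. In bulk tissue, fewer cells of a type and less RNA per cell cannot be told apart, and this holds for every value given here.

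**Figure D1:**
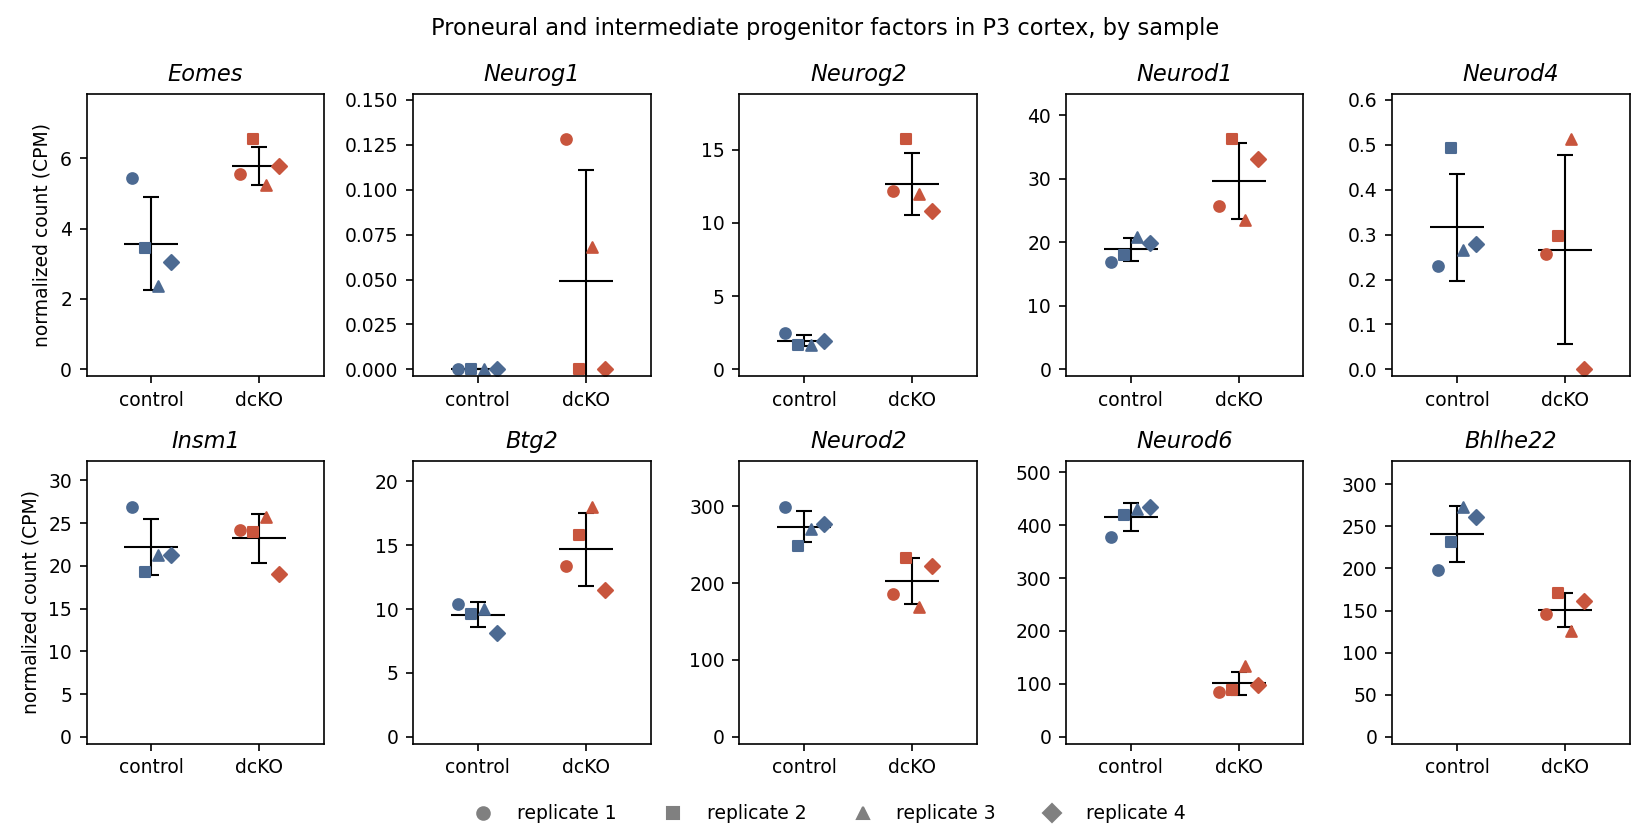
Normalized count (CPM, vertical axis, a scale of its own in each panel) of the 10 genes in each control (blue) and dcKO (red) sample, with symbols for replicates 1 to 4 and with the mean and SD (n = 4) as lines. The dcKO samples lie above all controls for Neurog2, Neurod1 and Btg2 and below all controls for Neurod2, Neurod6 and Bhlhe22, whereas Eomes, Insm1, Neurod4 and Neurog1 overlap.

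Neurog2 rose most. It lies on chromosome 3 of mm10 from 127633135 to 127635631 on the plus strand (ENSMUSG00000027967) and has 2 exons. In control replicates 1 to 4 its level was 2.49, 1.68, 1.69 and 1.91 CPM, and in dcKO replicates 1 to 4 it was 12.2, 15.7, 12 and 10.8 CPM. The lowest dcKO sample was thus far above the highest control, and the spread within either group was small beside the gap. The mean went from 1.94 ± 0.378 CPM (SD, n = 4) to 12.7 ± 2.12 CPM, a fold change of 2.71 on the log2 scale (SE, the standard error, 0.18, adjusted p = 1.13e-06 by edgeR). The exact two-sided permutation test over the 70 arrangements of the samples gave p = 0.0286, the smallest it allows. Only 50 of the 16525 tested genes had a larger fitted rise. The counts behind these values were 34 to 55 in control and 285 to 371 in dcKO samples.

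Eomes, the marker of intermediate progenitors, rose less and less evenly. It lies on chromosome 9 from 118478212 to 118486132 on the plus strand (ENSMUSG00000032446) and has 6 merged exons, whereas the other 9 genes have 1 or 2. Its level was 5.43, 3.45, 2.36 and 3.05 CPM in control replicates 1 to 4 and 5.56, 6.53, 5.25 and 5.77 CPM in dcKO replicates 1 to 4. The dcKO samples were close together, and 3 of the 4 were above all controls, but control replicate 1 was above dcKO replicate 3. The mean was 3.57 ± 1.32 CPM in control and 5.78 ± 0.542 CPM in dcKO, with a fold change of 0.70 on the log2 scale (SE 0.22, adjusted p = 0.0265 by edgeR). The exact two-sided permutation test gave p = 0.0571 for Eomes. The edgeR call was lost when control replicate 2, 3 or 4 or dcKO replicate 1 or 2 was left out, with log2 fold changes of 0.68, 0.54, 0.62, 0.71 and 0.63 and adjusted p = 0.0693, 0.0807, 0.081, 0.0583 and 0.0824. It was also lost without both dcKO libraries rich in choroid plexus RNA, at 0.63 with an adjusted p of 0.169. An antisense gene, Gm33460, shares 118 bases of exon with Eomes and had 0 to 2 counts per sample.

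The RefSeq starts of Neurog2, Eomes and Neurod1 share a feature of sequence. The bases upstream of the RefSeq start (GRCm38.p6) are shown for Neurog2, the gene with the largest rise, and for Eomes, its neighbour in the cascade, from 250 to 6 bases before the start, 5′ to 3′ on the strand of the gene, at chr3:127632886-127633130 and chr9:118477939-118478183, both on the plus strand. Capitals mark TATANAA, a form of the TATA box, and none of these bases match CANNTG.
Neurog2: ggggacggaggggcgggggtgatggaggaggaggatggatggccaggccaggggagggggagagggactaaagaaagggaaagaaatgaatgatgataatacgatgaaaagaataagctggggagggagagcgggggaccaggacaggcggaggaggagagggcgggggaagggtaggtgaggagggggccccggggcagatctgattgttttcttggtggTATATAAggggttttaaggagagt
Eomes: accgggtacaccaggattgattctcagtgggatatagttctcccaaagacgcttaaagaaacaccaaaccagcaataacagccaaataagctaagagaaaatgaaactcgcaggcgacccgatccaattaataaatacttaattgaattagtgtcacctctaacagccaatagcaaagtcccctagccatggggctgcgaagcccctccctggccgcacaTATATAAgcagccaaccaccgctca
The TATANAA match began 29 bases before the start in Neurog2, 30 in Eomes and 31 in Neurod1. GENCODE places the start of Neurod1 further upstream than RefSeq, so its match and part of its window lie inside the GENCODE transcript. This motif was chosen after the sequences were seen. It began from 25 to 35 bases before the start, on the strand of the gene, in 398 of the 27025 RefSeq promoters of 250 bases, or 1.47%, and in 3 of the 8 genes studied here that matched a promoter. The E-box, whose reverse complement has the same form, was present in 66% of all promoters of this length and in 3 of these 8, namely Neurod1, Neurod2 and Neurod6. A match describes letters in the window and no binding was measured here.

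Neurod1, which follows Eomes in the cascade, rose by a similar amount, with a gap between the groups that was small beside the spread of the dcKO samples. It lies on chromosome 2 from 79452521 to 79456751 on the minus strand (ENSMUSG00000034701). Its level was 16.9, 18.0, 20.8 and 19.9 CPM in control replicates 1 to 4 and 25.7, 36.2, 23.5 and 33.2 CPM in dcKO replicates 1 to 4. All dcKO samples were above all controls, but dcKO replicate 3 was near control replicate 3, which was sequenced on the same lane. The mean went from 18.9 ± 1.74 to 29.7 ± 5.99 CPM, a fold change of 0.65 on the log2 scale (SE 0.14, adjusted p = 0.00336 by edgeR, exact permutation p = 0.0286). Neurod1 shares 201 bases of exon with Cerkl on the same strand, which had 5 to 22 counts per sample, and 154 bases with Gm26755 on the other strand, which had at most 1.

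Btg2, whose product slows the cell cycle, rose by nearly the same factor. It lies on chromosome 1 from 134075170 to 134079120 on the minus strand (ENSMUSG00000020423). Its level was 10.4, 9.61, 10 and 8.16 CPM in control replicates 1 to 4 and 13.4, 15.8, 18.0 and 11.5 CPM in dcKO replicates 1 to 4. The controls were tight and the dcKO samples spread more widely, with no overlap. The mean was 9.54 ± 0.969 CPM in control and 14.7 ± 2.82 CPM in dcKO, and the fold change was 0.62 on the log2 scale (SE 0.15, adjusted p = 0.00614 by edgeR, exact permutation p = 0.0286).

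Insm1 did not follow the other genes of the progenitor stage. It is a gene of a single exon on chromosome 2 from 146221921 to 146225020 on the plus strand (ENSMUSG00000068154). Its level was 26.9, 19.3, 21.3 and 21.3 CPM in control replicates 1 to 4 and 24.2, 24.0, 25.7 and 19.1 CPM in dcKO replicates 1 to 4. The highest of these 8 samples was control replicate 1 and the lowest dcKO replicate 4, and the groups overlapped. The fold change was 0.06 on the log2 scale (SE 0.13, adjusted p = 0.716 by edgeR, exact permutation p = 0.686), and it was -0.00044 without control replicate 2.

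Neurog1 and Neurod4 were near the limit of detection and did not pass the filter. Neurog1 (chromosome 13, 56250478 to 56252163, ENSMUSG00000048904) had no count in the 4 controls and 3, 0, 2 and 0 counts in dcKO replicates 1 to 4. None of these is over 3 counts, and no fold change is given. Neurod4 (chromosome 10, 130268152 to 130280240, ENSMUSG00000048015) had 5, 10, 8 and 8 counts in control and 6, 7, 15 and 0 in dcKO, or 0.317 ± 0.119 and 0.266 ± 0.21 CPM. A difference in Neurod4 was not detectable at this depth (exact two-sided permutation test, p = 0.857).

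Neurod6, a marker of postmitotic glutamatergic neurons, fell most. It lies on chromosome 6 from 55677822 to 55681263 on the minus strand (ENSMUSG00000037984). Its level was 378, 418, 431 and 434 CPM in control replicates 1 to 4 and 83.8, 89.1, 133 and 97.6 CPM in dcKO replicates 1 to 4. The highest dcKO sample, replicate 3, was still far below the lowest control. The mean went from 415 ± 25.6 CPM to 101 ± 22.3 CPM, which is 4.11-fold lower, with a fold change of -2.04 on the log2 scale (SE 0.13, adjusted p = 1.37e-06 by edgeR, exact permutation p = 0.0286). Only 54 of the tested genes had a larger fitted fall.

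Bhlhe22, a bHLH factor of postmitotic cortical neurons, fell by a smaller amount. It has a single exon on chromosome 3 from 18054174 to 18057517 on the plus strand (ENSMUSG00000025128). Its level was 198, 231, 273 and 262 CPM in control replicates 1 to 4 and 146, 171, 125 and 161 CPM in dcKO replicates 1 to 4. The groups did not overlap, although control replicate 1 was closer to dcKO replicate 2 than to control replicate 3. The mean was 241 ± 33.5 CPM in control and 151 ± 19.9 CPM in dcKO, a fold change of -0.68 on the log2 scale (SE 0.12, adjusted p = 0.00086 by edgeR, exact permutation p = 0.0286).

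Neurod2, which acts with Neurod6 in the maturing neuron, fell least of these 3 genes. It lies on chromosome 11 from 98325415 to 98329648 on the minus strand (ENSMUSG00000038255). Its level was 299, 248.8, 270.2 and 276 CPM in control replicates 1 to 4 and 186, 233, 169 and 222 CPM in dcKO replicates 1 to 4. The gap between the lowest control and the highest dcKO sample was small beside the spread within the groups. The mean went from 274 ± 20.6 to 202.5 ± 29.8 CPM, a fold change of -0.43 on the log2 scale (SE 0.10, adjusted p = 0.00621 by edgeR, exact permutation p = 0.0286).

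The upstream bases of Neurod6 and Neurod2 are shown as those of the neuron-stage genes with the largest and the smallest fall, from 250 to 6 bases before the RefSeq start (GRCm38.p6), 5′ to 3′ on the minus strand, at chr6:55681269-55681513 and chr11:98329651-98329895. Capitals mark the E-box CANNTG, and neither printed stretch holds TATANAA.
Neurod6: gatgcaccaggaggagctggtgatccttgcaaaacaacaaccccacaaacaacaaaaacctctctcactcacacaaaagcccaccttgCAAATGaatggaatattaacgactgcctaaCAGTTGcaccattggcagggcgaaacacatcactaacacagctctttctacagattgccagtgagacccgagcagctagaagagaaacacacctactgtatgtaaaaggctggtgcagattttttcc
Neurod2: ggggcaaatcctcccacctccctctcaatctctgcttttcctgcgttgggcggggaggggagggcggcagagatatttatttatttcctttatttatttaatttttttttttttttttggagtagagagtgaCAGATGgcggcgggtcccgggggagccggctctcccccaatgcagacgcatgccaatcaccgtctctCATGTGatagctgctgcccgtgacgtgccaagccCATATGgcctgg
Neurod6 had 2 matches, which began 162 and 132 bases before the start. Neurod2 had 3, at 118, 51 and 17 bases, against a median of 1 match over all promoters. The windows also differed in CpG dinucleotides, with 3 in Neurod6 and 11 in Neurod2 against a median of 6. Neurog2 and Eomes had 8 each, and Neurod1, Btg2 and Neurog1 had 22, 27 and 29.

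**Figure D2:**
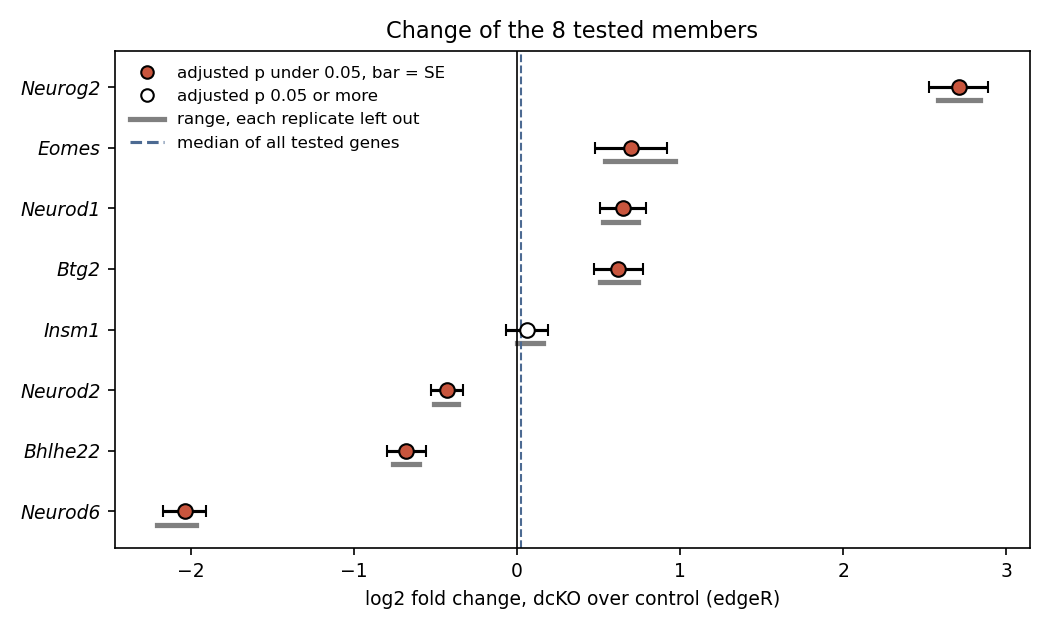
Log2 fold change of dcKO over control (horizontal axis, edgeR) for the 8 genes that passed the filter on low counts, with the SE as a bar, filled points where the adjusted p was under 0.05, and the range with each replicate left out as a grey line. Neurog2 at 2.71 and Neurod6 at -2.04 lie far from the median of all tested genes at 0.02, whereas the other called genes lie between -0.68 and 0.70.

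The lanes were compared because each held samples of both groups, with replicates 1 and 2 run on lane 5, replicate 3 run on lane 6 and replicate 4 run on lane 7. Differences between dcKO and control were taken in log2 CPM with 0.5 CPM added to each value, which makes those of low genes smaller. For Neurog2 the difference was 2.49, 2.51 and 2.23 on lanes 5, 6 and 7. For Neurod6 it was -2.20, -1.69 and -2.15, so each of these genes differed by a like size on every lane. Btg2 was higher in dcKO on each lane, by 0.52, 0.81 and 0.47, and Eomes by 0.43, 1.01 and 0.82. Neurod1 differed by 0.79 and 0.72 on lanes 5 and 7 and by 0.18 on lane 6. Neurod2 differed by -0.39, -0.67 and -0.32 and Bhlhe22 by -0.44, -1.12 and -0.70, whereas Insm1 changed sign, at 0.08, 0.26 and -0.16. Lanes 6 and 7 held 1 sample of each group, so their values have no error. On lane 5 alone, edgeR gave Eomes a log2 fold change of 0.43 with an adjusted p of 0.239, and the other 6 called genes passed.

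The order of the levels also differed between the groups when counts were divided by exon length. In control cortex Neurod6 was highest with 193 ± 11.9 CPM per kb (SD, n = 4), followed by Neurod2 at 87.1 ± 6.57 and Bhlhe22 at 72.1 ± 10, whose samples overlapped. Insm1 and Neurod1 came next at 7.16 ± 1.05 and 6.93 ± 0.639 CPM per kb and overlapped each other. Btg2 followed at 3.48 ± 0.353 CPM per kb, without overlap with either neighbour in this order. Neurog2 at 0.872 ± 0.17 and Eomes at 0.86 ± 0.317 CPM per kb could not be ordered, and Neurod4 and Neurog1 were lowest.

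In dcKO cortex the 3 neuron-stage genes were still the highest, but the samples of each overlapped those of the next. Neurod2 led with 64.4 ± 9.49 CPM per kb, before Neurod6 with 46.9 ± 10.4 and Bhlhe22 with 45.1 ± 5.95. Neurod1 was next at 10.9 ± 2.2 CPM per kb and overlapped neither neighbour. Insm1 at 7.5 ± 0.919, Neurog2 at 5.69 ± 0.952 and Btg2 at 5.35 ± 1.03 CPM per kb overlapped in turn. Neurog2 was therefore at the level of Btg2 and Insm1 in dcKO but of Eomes in control, while Eomes stayed below them at 1.39 ± 0.13 CPM per kb.

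**Figure D3:**
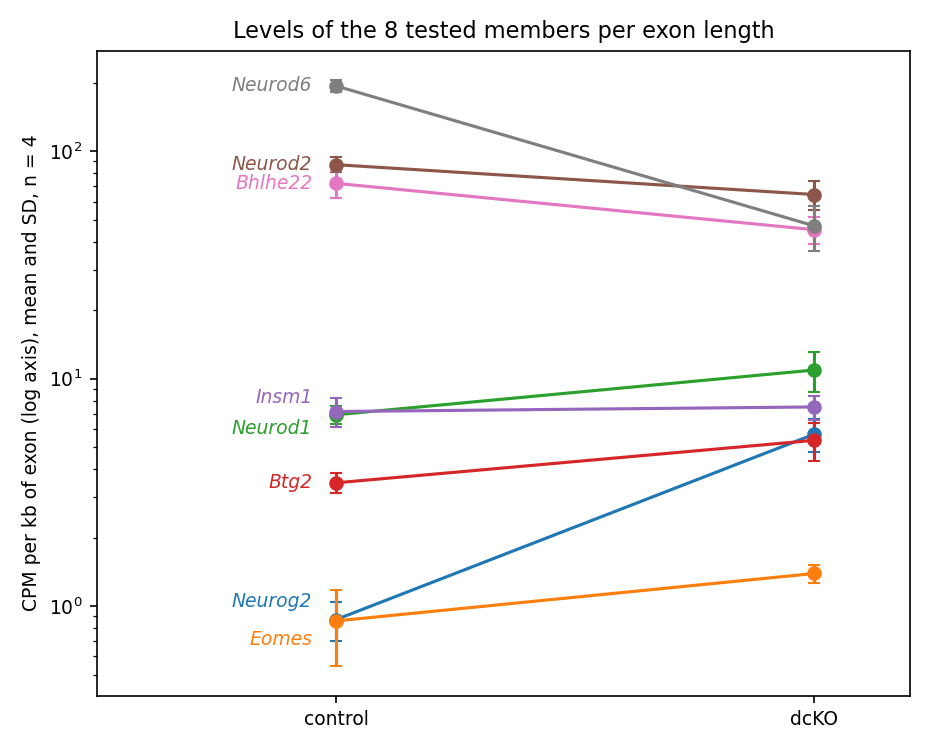
Level per exon length (CPM per kb, log axis, mean and SD of 4 samples) of the 8 genes that passed the filter, in control and dcKO cortex, with a line for each gene. The line of Neurod6 falls from 193 to 46.9 and crosses that of Neurod2, and the line of Neurog2 rises from 0.872 to 5.69 and reaches that of Btg2.

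The balance between stages was then measured as the log2 ratio of a pair of genes within each sample, with 0.5 CPM added to each value. Such a ratio depends on the scaling of the library only through the added 0.5 CPM, but its genes were already seen to change, so it is no separate evidence. Neurog2 to Neurod6 was -7.42 ± 0.29 (SD, n = 4) in control and -2.93 ± 0.42 in dcKO, a difference of 4.49 (exact two-sided permutation test, p = 0.0286, and 0.0381 adjusted over the 4 ratios). Neurod1 to Neurod2, which follows a progenitor factor against its relative in neurons, was -3.82 ± 0.19 in control and -2.76 ± 0.08 in dcKO, a difference of 1.06 with the same exact p-values. In both ratios all dcKO samples were above all controls. With 0.1 CPM added in place of 0.5, the difference was 4.71 for Neurog2 to Neurod6 and 1.07 for Neurod1 to Neurod2.

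The remaining ratios set a progenitor factor against a gene outside the 10. Neurog2 to Pax6, the radial glia factor that acts before it, was -3.02 ± 0.20 in control and -1.87 ± 0.23 in dcKO, a difference of 1.15 (exact permutation p = 0.0286, adjusted 0.0381), so that Neurog2 rose by more than Pax6. Eomes to Tbr1, the T-box factor that follows it in young neurons, was -5.57 ± 0.41 in control and -4.96 ± 0.20 in dcKO, a difference of 0.61 that did not pass (exact permutation p = 0.0571, adjusted 0.0571). Control replicate 1, at -5.03, lay within the dcKO samples. With 0.1 CPM added in place of 0.5, the difference was 1.35 for Neurog2 to Pax6 and 0.68 for Eomes to Tbr1.

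**Figure D4:**
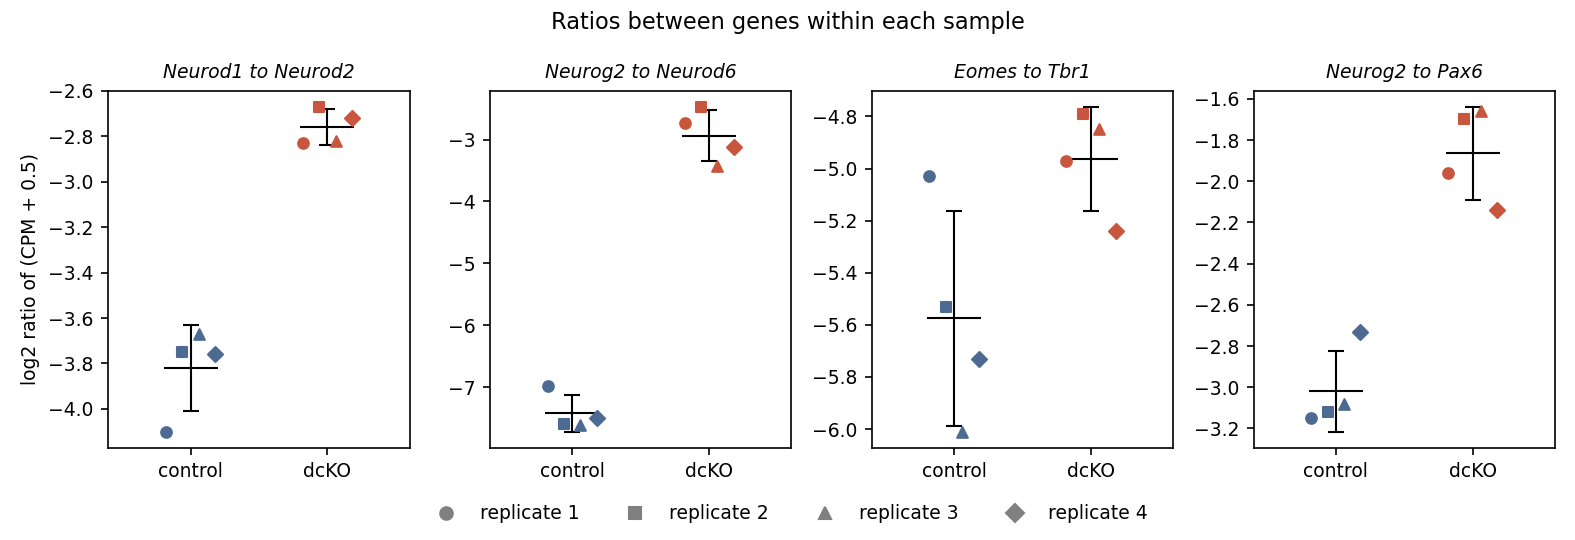
Log2 ratio between 2 genes within each sample (vertical axis, CPM with 0.5 added, a scale of its own in each panel) in control (blue) and dcKO (red) samples, with mean and SD (n = 4) and symbols for replicates 1 to 4. All dcKO samples lie above all controls for Neurod1 to Neurod2, Neurog2 to Neurod6 and Neurog2 to Pax6, and the groups overlap for Eomes to Tbr1.

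The genes that work with these factors were counted next. A list is described by its counts and its median log2 fold change, beside a median of 0.02 over all tested genes, of which 18.6% rose and 18.9% fell. Of the 3 E proteins with which bHLH factors pair, Tcf12 rose (0.46, SE 0.10, adjusted p = 0.00424 by edgeR), Tcf4 fell (-0.53, SE 0.08, adjusted p = 0.000275) and 1 did not pass, with a median of 0.19. Of the 7 inhibitors, which are Id proteins that bind E proteins and Hes and Hey repressors of the Notch pathway, Id3 and Id4 rose by 0.77 and 0.78, Id2 fell (-0.65) and 4 did not pass, with a median of 0.17. Id2 went from 238 ± 14.2 to 152 ± 25.7 CPM and Id4 from 23.8 ± 4.38 to 40.7 ± 3.35 CPM, both without overlap.

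Other bHLH factors, several of which belong to neurons outside the cortex, were measured for comparison. Of 9 such genes 4 passed the filter, Ptf1a and Nhlh1 only through their dcKO counts: Ptf1a, Nhlh1 and Nhlh2 rose and 1 fell. Nhlh1 and Nhlh2, bHLH factors of young neurons, rose by 2.69 and 0.89 on the log2 scale, and Nhlh1 went from 4 to 10 counts per control sample to 37 to 60 per dcKO sample. Ptf1a, a factor of GABAergic neurons of the cerebellum and hindbrain, had 1 count in all controls together and 9, 27, 24 and 14 in dcKO, so no fold is given. Their median of 1.79 lies between the values of the Nhlh genes and does not depend on Ptf1a. The 5 genes under the filter had at most 24 counts in any sample, and among them Atoh1, a factor of rhombic lip progenitors, had none in control and 4, 3, 3 and 2 in dcKO.

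Genes that share the stage of the progenitor factors passed about as often as any tested gene, 3 of 9 against 37.5%. Among these 9 other genes of intermediate progenitors, Gadd45g, a growth arrest gene, rose by 0.96 (SE 0.17, adjusted p = 0.00114 by edgeR) and the Notch ligand Dll3 by 0.61 (SE 0.12, adjusted p = 0.0022). Sstr2, a somatostatin receptor of intermediate progenitors and young neurons, fell (-1.58, SE 0.15, adjusted p = 1.05e-05), and 6 did not pass, with a median of 0.10. Of 8 genes of cycling cells Cdk1 and Pcna rose by 0.43 and 0.27 and 6 did not pass, with a median of 0.14.

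Radial glia genes were divided. Of 8 such genes, Pax6, Hopx, Sox2 and Vim rose by 1.28, 1.23, 0.71 and 0.58 on the log2 scale, Nes fell (-0.84) and 3 did not pass, with a median of 0.41. Pax6, which lies before Neurog2 in the cascade, went from 19.5 ± 4.54 to 47.4 ± 5.86 CPM (adjusted p = 6.35e-05 by edgeR). The summed level of the list was between 1512 and 1558 CPM in control and between 1300 and 2351 CPM in dcKO, so the samples of the groups overlapped in that sum. Fabp7 and Slc1a3, which did not pass, made up most of it, with means of 735 and 494 CPM in control and 860 and 444 CPM in dcKO.

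Among genes of neuronal differentiation and of cortical glutamatergic neurons, more fell than rose. Of 10 differentiation genes 6 fell, 1 rose and 3 did not pass, with a median of -0.34. The falls were led by Zbtb18 (-1.69), Bcl6 (-1.51) and Prdm8 (-1.32), transcriptional repressors of the neuronal lineage, and the rise was Rnd2, a small GTPase of migrating neurons (0.73, SE 0.10, adjusted p = 0.000161 by edgeR). Of 7 markers of cortical glutamatergic neurons 6 fell and 1 did not pass, with a median of -0.93. Fezf2, a factor of subcortical projection neurons, fell from 79.5 ± 10.6 to 37.5 ± 3.23 CPM (-1.08, adjusted p = 1.49e-05 by edgeR), and Cux2 (-1.0) and Rorb (-0.93), genes of the upper layers, fell as well. The summed level of these 7 markers was between 1139 and 1340 CPM in control and between 628 and 756 CPM in dcKO. The part of this lower level in the falls of Neurod2, Neurod6 and Bhlhe22 was not tested.

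**Figure D5:**
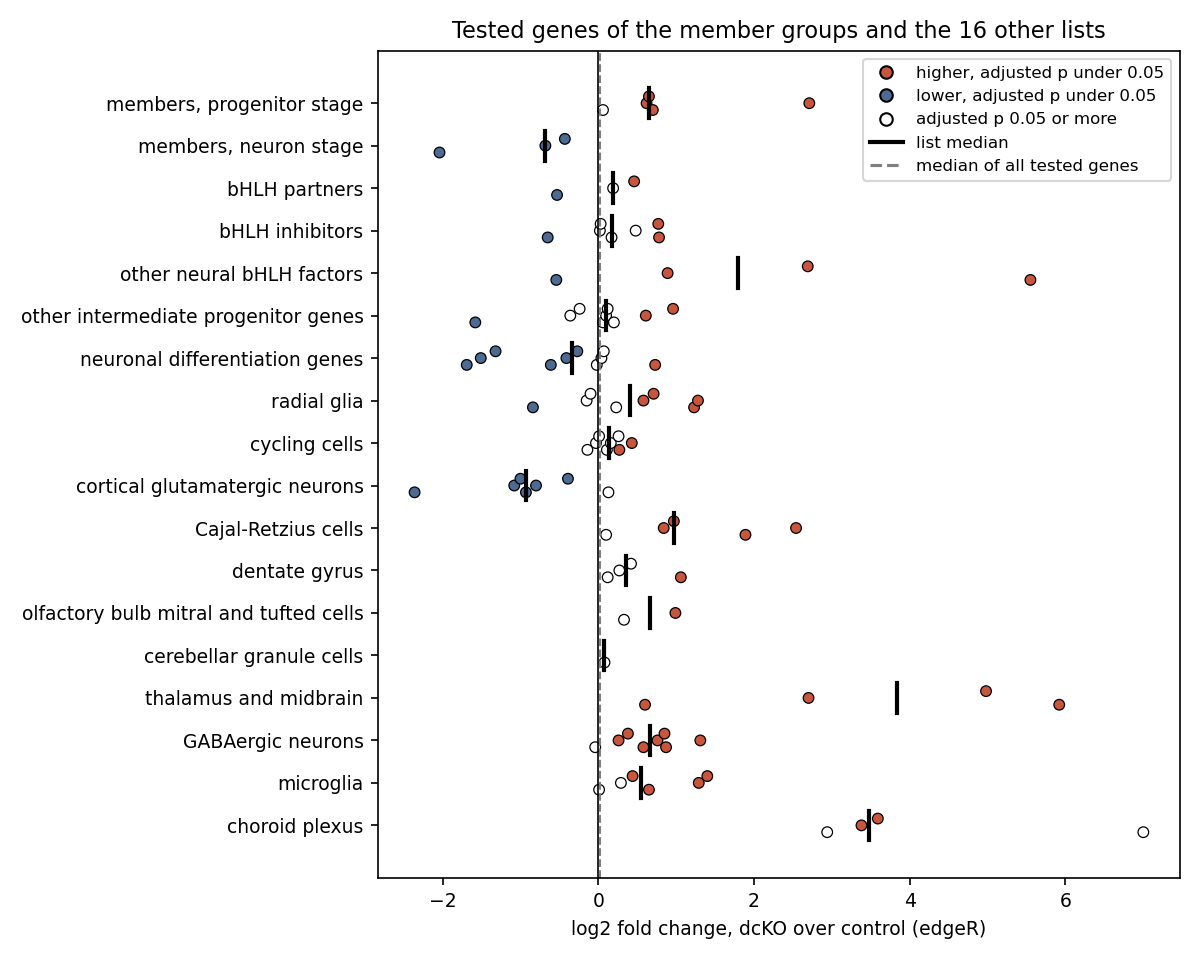
Log2 fold change of dcKO over control (horizontal axis, edgeR) of each tested gene of the 10 factors, by stage, and of the 16 other lists (vertical axis), with filled points where the adjusted p was under 0.05, a black bar at the median of each list and a dashed line at the median of all tested genes. The neuron-stage factors lie with cortical glutamatergic neurons on the lower side, and the 4 markers of thalamus and midbrain, 2 of which passed the filter only through dcKO samples, on the higher side.

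Neurog2, Neurod1 and Eomes are also used by cells outside the cortical progenitor, and markers of such cells were counted list by list. The 4 genes of thalamus and midbrain summed to 4.58 to 7.36 CPM in control and 20.2 to 28.7 CPM in dcKO. All 4 passed the threshold, but Gbx2 and Pou4f1 passed the filter only through their dcKO counts, and 2 genes were called where at least 10 counts were required in every sample. Among them Pou4f1 had 1 to 4 counts per control sample and 72 to 104 per dcKO sample, Gbx2 had 2 counts over all controls and 32 to 50 per dcKO sample, and Lhx9 rose by 2.70 (SE 0.28, adjusted p = 4.02e-05 by edgeR). Of 5 markers of Cajal-Retzius cells, early neurons of the cortical surface, Ebf3, Lhx1, Trp73 and Lhx5 rose by 2.54, 1.89, 0.97 and 0.84. For each of these genes all dcKO samples were above all controls, whereas Reln did not pass and its samples overlapped. The summed level was 222 to 380 CPM in control and 302 to 403 CPM in dcKO. Most of this sum was Reln, at 299 ± 72.1 CPM in control and 320.5 ± 35.9 CPM in dcKO. Of 4 dentate gyrus genes Dsp rose by 1.06 and 3 did not pass, with sums of 88.2 to 120.5 and 104 to 131 CPM. Of 3 genes of olfactory bulb mitral and tufted cells 2 passed the filter, of which Doc2g rose by 0.99 and 1 did not pass the threshold. They summed to 12.3 to 17.3 CPM in control and 15.8 to 21.5 CPM in dcKO. Tbx21, the defining marker of this list, had at most 16 counts in any sample. Of 4 cerebellar granule cell genes only 1 passed the filter and none was called, and they summed to at most 2.03 CPM. The part of these cells in the rises of Neurog2, Neurod1 and Eomes was not tested.

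Markers of other cells of the tissue rose as well. Of 8 genes of GABAergic neurons 7 rose, led by Sp9 (1.31), Gad1 (0.87), Dlx5 (0.85) and Gad2 (0.76), and 1 did not pass. Their summed level was between 443 and 474 CPM in control and between 650 and 740.4 CPM in dcKO. Of 6 microglia genes 4 rose, led by Aif1 (1.40) and C1qa (1.29), with sums of 68.7 to 95.5 CPM in control and 122 to 146 CPM in dcKO. Of the 4 choroid plexus markers Clic6 and Kcne2 rose by 3.59 and 3.38, mostly through dcKO replicates 1 and 2. Without these 2 libraries, edgeR gave Neurog2 a log2 fold change of 2.55 (adjusted p = 0.000101), Neurod6 -1.85 (9.3e-05), Neurod1 0.59 (0.0311), Btg2 0.62 (0.0478), Bhlhe22 -0.75 (0.00826) and Neurod2 -0.48 (0.0319). These 6 genes thus still passed with 2 dcKO samples against 4 controls.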

How the data were processed

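Raw counts per gene were deposited by the authors for 4 control and 4 dcKO P3 cortices. They isolated total RNA with TRIZOL, made libraries with the TruSeq RNA v2 kit, aligned the reads to mm10 and counted them with featureCounts; the aligner, gene annotation and strand setting are not given in the sources used here. The files hold 48709 Ensembl identifiers, of which 48349 matched a symbol in GENCODE M21 (GRCm38), which also gave coordinates and exon lengths. Without a known strand setting, reads of overlapping genes cannot be told apart.

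Counts were normalized by TMM, filtered with filterByExpr (minimum count 10) and tested with edgeR 4.0.16 in R 4.3.3 (glmQLFTest, quasi-likelihood, robust) over all 8 samples without a block, with Benjamini-Hochberg adjustment over 16525 genes and a threshold of 0.05. The fit was tested on simulated data. Exact two-sided permutation tests (scipy version 1.17.1) used CPM or log2 ratios over 70 arrangements, with a smallest p of 0.0286. No replicate pair agreed within sampling noise. Alternatives were DESeq2 (version 1.42.0), limma-voom (version 3.58.1), other scalings and filters, blocks, lanes and left-out replicates. The 10 genes and the 16 lists (99 genes) were chosen with earlier results of these data known. All 10 genes and the targeted genes are named; of each list those with an adjusted p under 0.05, the 4 largest changes where more passed, and genes at 0 in a group. Tbr1, Ttr, Tbx21, Reln, Fabp7 and Slc1a3 are named outside that rule, Tbr1 for its ratio, and some genes that the rule names are left out. RefSeq promoters (GRCm38.p6) matched 8 of the 10 genes, without Insm1 and Bhlhe22.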

Additional observations from a re-analysis of the deposited data

Results flagged for a closer look

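In 1 of 31 groups of 4 samples checked for a sample far from the others, among the 10 genes, the targeted genes and the ratios, a sample stood apart: control replicate 4 in the ratio of Neurog2 to Pax6, at -2.73 on the log2 scale against -3.15, -3.12 and -3.08 in the other controls. Its gap to the nearest sample was 0.843 of the whole range of the group, over Dixon's 95% critical value for 4 samples. Chance gives about 1.6 such groups among 31. The dcKO samples were at -2.14 to -1.66, above it. The difference between the groups was 1.25 without that sample and 1.15 with it.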

How the results depend on the processing

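Neurog2, Neurod6 and Bhlhe22 passed the threshold in all 19 settings tried, and Neurod1, Btg2 and Neurod2 in 18 of 19, while Eomes passed in 11. With the replicate number as a block the 4 rises and 3 falls passed too, and the numbers of genes called higher and lower over all genes were 2932 and 2982 against 3074 and 3128 without it; same-numbered samples correlated at 0.171, -0.068, 0.213 and -0.024, so the numbers were not taken to pair the samples. The ratios of Neurod1 to Neurod2, Neurog2 to Neurod6 and Neurog2 to Pax6 have differences of 1.06, 4.49 and 1.15 with the replicate block, equal by construction to those without it, and 4 pairs cannot give an exact p under 0.125. Library totals in place of TMM shifted all genes to a median of 0.15 on the log2 scale and the split of calls to 4584 higher and 2102 lower; DESeq2 gave 3136 and 3427.

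Genes called higher fell to 1951 on lane 5 alone. In a pair of alternatives chosen after seeing the data, they fell to 1388, and genes called lower to 1581, without the 2 dcKO libraries with the highest Ttr, and to 505 and 791 on lanes 6 and 7 alone, where 1 of the 10 genes was called higher (Neurog2) and 2 lower. There Neurod1 (0.48, adjusted p = 0.169 by edgeR), Btg2 (0.69, 0.145), Neurod2 (-0.48, 0.108) and Eomes (1.02, 0.0603) did not pass, with 2 samples against 2. With each replicate left out in turn, 3 to 4 of the 10 genes were called higher and 3 lower, and the counts over all genes were 2199 to 3308 and 2375 to 3273. The ratios then ranged from 0.97 to 1.11 for Neurod1 to Neurod2, from 4.33 to 4.65 for Neurog2 to Neurod6, from 0.47 to 0.79 for Eomes to Tbr1 and from 1.08 to 1.25 for Neurog2 to Pax6, and 3 samples against 4 cannot give an exact p under 0.0571. Insm1 ranged from -0.00044, without control replicate 2, to 0.16. Among the lists, other neural bHLH factors had 3 genes called higher by edgeR, 6 by DESeq2, 7 with no filter and 1 where every sample needed 10 counts, and choroid plexus 2, 4, 0 and 1; thalamus and midbrain had 4 and, under the last setting, 2. Depth limits Neurog1 and Neurod4, which edgeR without a filter did not call either, and DESeq2 gave Neurog1 no adjusted p.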
